A study of Mus musculus with 24 samples.

Results

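The cell cycle and DNA replication genes described here are 45 genes found by symbol among the 49568 genes of each of 2 expression tables of mouse liver cells. They comprise 2 proliferation markers, 9 genes of replication origin licensing, 5 genes of the replication fork and nucleotide supply, 5 G1 cyclins and kinases, 5 cyclins and kinases of S phase and mitotic entry, 15 mitosis genes and 4 transcription factors. Within them, an S phase list of 13 genes (Mcm2 to Mcm7, Cdc6, Cdt1, Pcna, Rrm1, Rrm2, Tyms and Tk1) was set against the mitosis list of 15 genes. All 45 passed the filter on low values in the transwell experiment, and 37 passed it in the freshly sorted fractions. Plk1, Aurkb, Bub1, Kif11, Cenpf, Ccnb1, E2f2 and Mybl2 did not pass in the fresh fractions and were not tested there.

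The study asked how periportal mesenchymal cells act on the bile duct epithelium of the liver, and Smart-seq2 libraries (full-length cDNA sequencing from few cells) were made from sorted and cultured cells. In the homeostasis experiment, 4 CD45- CD11b- CD31- fractions were sorted from 3 healthy littermates of 12 weeks named A, E and F (A and E male, F female), heterozygous for the knock-in reporter allele Pdgfra tm11(EGFP)Sor, which puts a nuclear H2B-GFP under the control of Pdgfra. The fractions were EpCAM+ ductal cells (DCs), PDGFRα+SCA1+ cells, PDGFRα+SCA1- cells and PDGFRα-SCA1+ cells, with 1 library per mouse. The transwell experiment used wild-type C57BL/6 mice of 8 to 12 weeks and 6 groups of 2 libraries. DCs were taken at day 0, or after 15 days as organoids in Matrigel on a cell-impermeable insert, either alone in EM, a medium rich in growth factors, or in MM, a basal medium with WNT-conditioned medium that lacks those added factors, above mesenchymal cells. SCA1+ CD45- CD11b- CD31- mesenchymal cells (Msc) were sorted from other littermates without a PDGFRα gate. They were taken at day 0, after culture alone in MM, or after co-culture below the organoids. Per the paper, Msc were first expanded in MM on the bottom of the plate, and DCs were added afterwards for 15 days. Lineage, time in culture and culture format cannot be told apart between co-cultured Msc and organoids. EM organoids and co-cultured organoids therefore differed in both the medium and the presence of Msc, and these cannot be told apart. Replicates of a transwell group are numbered libraries of littermates, so p-values there measure the spread between these libraries, which may be partly technical.

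To divide, a cell passes the G1 restriction point when D-type cyclins with CDK4 or CDK6 inactivate the retinoblastoma family, which releases E2F factors and their S phase targets. Origins of replication are licensed in G1 by loading of the MCM helicase, whose 6 subunits Mcm2 to Mcm7 form 1 ring, and fire in S phase. The mitosis genes follow later in the cycle, when B-MYB (Mybl2), FOXM1 and the MuvB core replace the DREAM repressor at CHR elements, often beside CCAAT boxes. Bile duct epithelium in a healthy adult liver divides rarely, and proliferates after damage or in organoid culture.

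Promoter sequences are given for 5 of the genes. RefSeq windows of 250 bases before to 50 bases after the start (GRCm38.p6, first listed window per gene) were matched for 36 of the 45 genes, and those of Mcm6, Mcm7, Cdk1, Plk1 and Ccnb2 are shown because their transcripts stand for the patterns described below: helicase subunits already high in fresh DCs, the kinase common to both phases, and mitosis genes that rose in culture. Capitals mark matches on either strand to an E2F form (TTTCCCGC, TTTGGCGC, TTTCGCGC or TTTGCCGC), a CHR form (TTTGAA or TTTAAA) or CCAAT, and overlapping matches share 1 run of capitals.
Mcm6, chr1:128359656-128359955, minus strand: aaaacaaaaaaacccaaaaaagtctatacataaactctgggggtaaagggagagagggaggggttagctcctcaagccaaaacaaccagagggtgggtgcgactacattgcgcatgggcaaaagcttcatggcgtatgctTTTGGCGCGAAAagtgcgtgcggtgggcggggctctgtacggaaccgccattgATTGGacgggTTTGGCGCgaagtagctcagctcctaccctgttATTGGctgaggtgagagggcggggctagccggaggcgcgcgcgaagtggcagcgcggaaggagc
Mcm7, chr5:138171834-138172133, minus strand: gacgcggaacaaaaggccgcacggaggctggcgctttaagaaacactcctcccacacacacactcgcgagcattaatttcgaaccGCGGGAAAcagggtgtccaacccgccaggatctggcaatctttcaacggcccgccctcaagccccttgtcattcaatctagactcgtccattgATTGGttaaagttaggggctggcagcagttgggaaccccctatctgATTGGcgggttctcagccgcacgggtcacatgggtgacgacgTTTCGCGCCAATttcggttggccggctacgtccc
Cdk1, chr10:69352863-69353162, minus strand: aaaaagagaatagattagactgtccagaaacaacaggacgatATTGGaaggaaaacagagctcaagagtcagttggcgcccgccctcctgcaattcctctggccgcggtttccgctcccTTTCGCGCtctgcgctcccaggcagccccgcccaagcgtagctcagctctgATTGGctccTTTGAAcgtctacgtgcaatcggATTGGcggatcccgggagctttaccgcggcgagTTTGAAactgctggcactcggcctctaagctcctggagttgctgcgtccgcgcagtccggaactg
Plk1, chr7:122159185-122159484, plus strand: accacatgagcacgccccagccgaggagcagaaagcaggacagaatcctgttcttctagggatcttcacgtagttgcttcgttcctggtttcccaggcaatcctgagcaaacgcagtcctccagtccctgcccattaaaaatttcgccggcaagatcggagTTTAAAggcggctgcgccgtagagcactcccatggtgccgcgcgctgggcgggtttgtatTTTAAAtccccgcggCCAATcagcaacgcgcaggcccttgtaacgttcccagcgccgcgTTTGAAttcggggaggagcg
Ccnb2, chr9:70421505-70421804, minus strand: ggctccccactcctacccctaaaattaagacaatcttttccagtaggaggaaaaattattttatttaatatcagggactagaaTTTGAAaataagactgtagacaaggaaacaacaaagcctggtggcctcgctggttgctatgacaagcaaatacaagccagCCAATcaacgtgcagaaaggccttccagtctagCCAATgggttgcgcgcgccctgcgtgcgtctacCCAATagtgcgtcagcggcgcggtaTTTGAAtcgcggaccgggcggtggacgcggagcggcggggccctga
The window of Mcm6 held 3 E2F matches and no CHR match, and that of Mcm7 held 2 and none. Cdk1 held 1 E2F match with 2 CHR matches, while Plk1 held 3 CHR matches and Ccnb2 held 2, with no E2F match in either. Over the S phase list, 6 of 12 windows (50%) held an E2F match and 4 (33.3%) a CHR match. Over the mitosis list, none of 13 windows held an E2F match and 12 (92.3%) held a CHR match, 11 of them (84.6%) together with CCAAT. Among all 27025 windows, 2.32% held an E2F form, 27.8% a CHR form, 37.9% CCAAT and 10.9% both CHR and CCAAT. These are matches of letters in a window and not measured sites. No window was at hand for Aurkb, Ccna2, Ccnd1, Ccnd2, Ccne2, Foxm1, Gmnn, Kif20a and Mcm4.

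Libraries held 19.6 to 25.7 M reads in homeostasis and 19.3 to 28.1 M reads in the transwell experiment, recovered from the step of 1 read in the values. Transwell levels are given as TPM, which are scaled by gene length and to the same sum in every library and can be compared between genes. The homeostasis table is given as deposited, and because its scaling moved between 0.722 and 1.386 of TPM from gene to gene, no levels are compared between the experiments. Tests were limma fits of log2(value + 1) over all 12 libraries of an experiment, called at an adjusted p (Benjamini-Hochberg over all genes tested) under 0.05, and fold changes on this scale understate the change of low genes. The labels held against their markers in ductal and PDGFRα+ cells, but the PDGFRα-SCA1+ fraction, sorted as CD31-, had a summed level of 5 endothelial markers of 1768 to 2102, against at most 16.2 in the other fractions. Day 0 libraries carried RNA of other cells: 5 hepatocyte markers summed to 4211 to 5294 TPM in DCs and 16122 to 20788 in Msc, and 5 erythroid markers to 3890.4 to 3961 and 6389 to 8038. In day 0 Msc 6 ductal markers also summed to 1192 to 2539 TPM, against at most 554 in cultured Msc. Endothelial markers summed to between 89.4 and 182 TPM in all Msc groups. The 5 macrophage markers summed to 183 to 232 in day 0 Msc, 382 to 612 in Msc alone and 267 to 291 in co-culture. Most of that sum in cultured Msc was Lyz2, at 367 and 588 TPM alone and 253 and 274 in co-culture, against 184 and 78.8 at day 0. Clec4f went from 17.5 and 28.7 TPM at day 0 to 0 in cultured Msc. Cd68 went from 21.6 and 63.6 to 8.81 and 15.2 alone and 4.15 and 9.04 in co-culture. Csf1r and Adgre1 overlapped between day 0 and cultured Msc. In culture the hepatocyte sum was 1348 to 1415 in EM organoids and at most 369 in the other groups, and the erythroid sum at most 6.30. The part of RNA of other cells in the comparisons was not tested. In all of these bulk libraries, fewer cycling cells and less cycling RNA per cell cannot be told apart. Groups of 2 transwell libraries can lie apart where nothing is called, as 24 of 45 members did between co-cultured Msc and Msc alone. The share of all genes whose groups do not overlap was not counted.

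Most of these genes rose in the ductal lineage over 15 days of culture. In EM organoids 33 of 45 were higher than in day 0 DCs and none was lower (limma, adjusted p 6.6e-07 to 0.039), beside 44.4% of all tested genes called in either direction and 27.1% called higher. In co-cultured organoids 34 were higher and 2 lower, beside 42.3% called and 23.2% higher. The median change was 2.19 (log2) in EM and 1.89 in co-culture, against 0.12 and 0.00 over all genes. All 15 mitosis genes rose in both media, whereas the S phase list was split, with 7 of 13 higher in EM and 8 higher and 1 lower in co-culture. Without 1 of the 12 libraries in turn, 28 of the 33 calls in EM and 26 of the 36 in co-culture held every time.

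**Figure D1:**
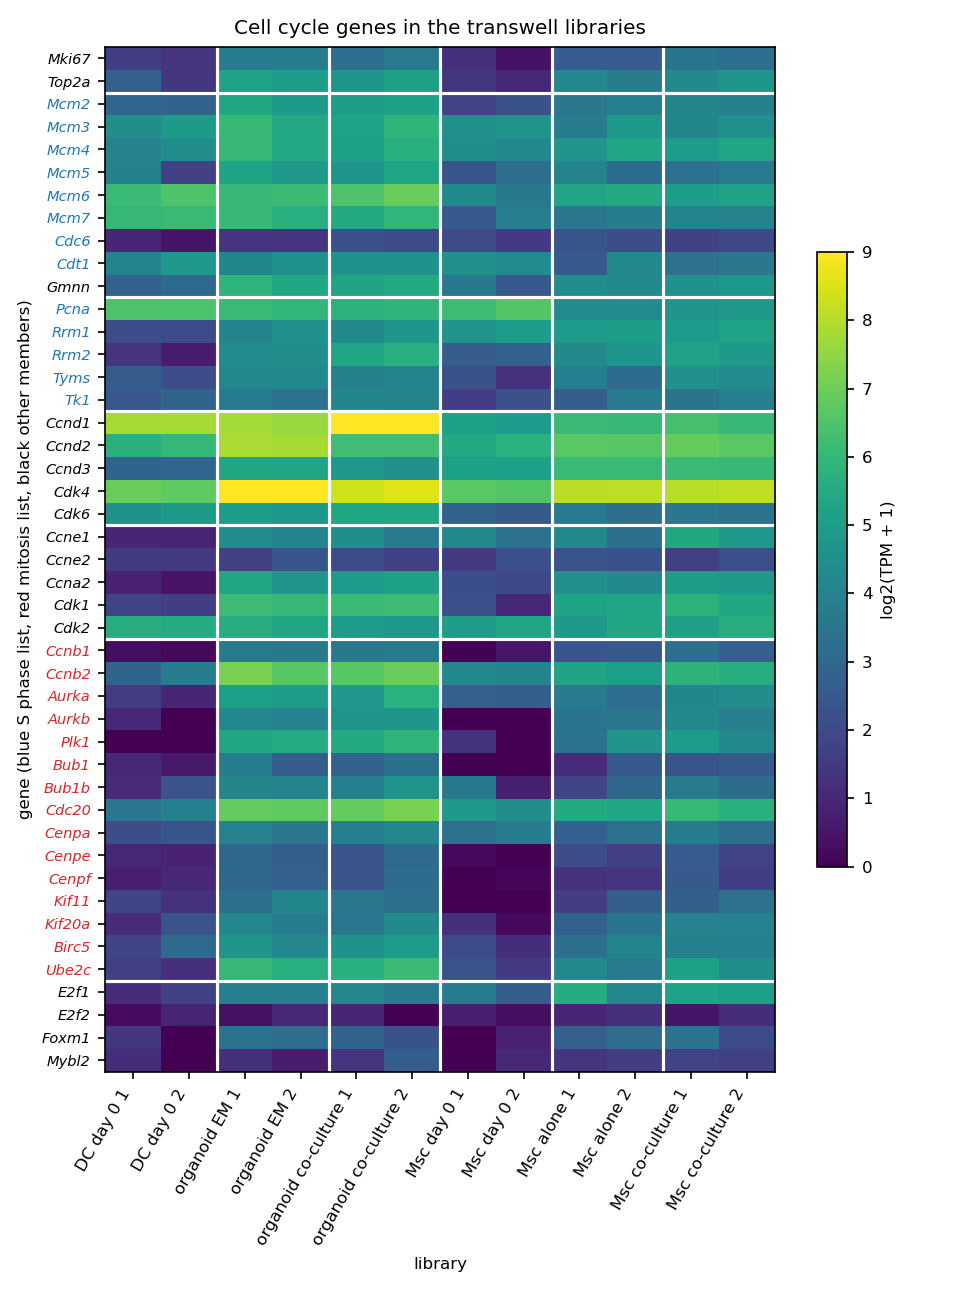
Level of each of the 45 genes, as log2(TPM + 1), in the 12 transwell libraries (columns, 2 per group), with genes ordered by role and white lines between roles and groups. Mitosis genes (red) are lighter in all 4 cultured groups than at day 0, except Cenpa and Bub1b in Msc, while Mcm6, Mcm7, Pcna and Ccnd1 are already bright in day 0 DCs.

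The proliferation marker Mki67, which encodes the nuclear antigen Ki-67, stood at 2.17 and 1.64 TPM in the 2 day 0 DC libraries, at 13.1 and 12.6 in EM organoids and at 8.70 and 12.1 in co-cultured organoids. Every organoid library lay above both fresh ones, with changes of 2.26 ± 0.32 (log2, SE, adjusted p = 0.00032 by limma) and 1.96 ± 0.32 (adjusted p = 0.00083). Top2a, the topoisomerase that untangles sister chromatids, went the same way, from 5.87 and 1.67 TPM to 35.7 and 31.0 in EM and 24.9 and 33.5 in co-culture.

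The mitosis genes started at no more than 13.8 TPM in fresh DCs. Plk1, the polo-like kinase that drives mitotic entry and spindle assembly, had no read in either day 0 DC library and reached 40.2 and 45.3 TPM in EM organoids and 44.3 and 58.9 in co-culture. Against the 0.218 TPM that a count of 3 reads in 1 library would give, it was at least 196-fold higher in EM and at least 237-fold higher in co-culture, limits that cover counting error only. Ccnb1, cyclin B1, rose from 0.248 and 0.152 TPM to between 11.1 and 12.2 in the 4 organoid libraries. Its paralogue Ccnb2, whose promoter is shown above, was the highest of the list in EM organoid 1, at 144 TPM, with 99.8 in EM organoid 2, 101 and 123 in co-culture and 6.53 and 12.6 at day 0. Both B cyclins were therefore separated from the fresh cells in every library, at very different levels.

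Cdc20, which activates the anaphase-promoting complex, was already at 10.5 and 13.8 TPM in fresh DCs and rose to 112 and 109.8 in EM and 115 and 143 in co-culture. Ube2c, the ubiquitin-conjugating enzyme of the same complex, went from 2.23 and 1.29 TPM to 62.6 and 48.4 in EM and 51.2 and 69.4 in co-culture, a mean 31.5 and 34.2 times the fresh level. The change of Ube2c on the log2 scale was 4.36 ± 0.35 (SE) in EM and 4.48 ± 0.35 in co-culture (adjusted p = 1.1e-05 and 1e-05, limma). Neither gene overlapped between fresh and cultured libraries. The Aurora kinases rose too, Aurka (spindle poles) by 3.77 and 4.03 and Aurkb (chromosomal passenger complex) by 3.57 and 4.19, as did Birc5 (survivin, also of the passenger complex) by 1.97 and 2.30. The centromere and kinetochore genes rose as well, Cenpa, the centromeric histone H3 variant, by 1.51 and 1.74, Cenpe by 1.95 and 1.77 and Cenpf by 1.98 and 1.83. The motors Kif11 (bipolar spindle) and Kif20a (midzone) rose by 2.15 and 1.89 and by 2.22 and 2.16. The spindle checkpoint kinase Bub1 rose by 2.42 and 2.31. Birc5 was lost in EM without DC day 0 replicate 1 (adjusted p = 0.054), and in co-culture Kif11 without DC day 0 replicate 2 or co-cultured organoid replicate 1 and Kif20a without DC day 0 replicate 1 or co-cultured organoid replicate 2 (up to 0.06). Bub1b (BubR1) was called in both media at 2.39 ± 0.82 and 2.58 ± 0.82 (adjusted p = 0.039 and 0.029), with 1.14 and 3.89 TPM at day 0. The calls of Bub1b were lost in 8 and 4 of the 12 fits without 1 library, including those without either DC day 0 library (largest adjusted p 0.23), with a pseudocount of 0.1 in both media (0.068 and 0.055) and with quantile normalization in EM (0.081).

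Of the 5 cyclins and kinases that span the phases, 3 rose in both organoid groups. Cdk1, the mitotic kinase, stood at 2.60 and 2.13 TPM in fresh DCs against 70.9 and 64.6 in EM and 70.0 and 70.9 in co-culture, a mean 28.6 and 29.8 times the fresh level. Its partner Ccna2, cyclin A2, rose from 0.797 and 0.391 TPM to 40.8 and 25.1 in EM and 30.5 and 34.6 in co-culture, by 4.38 ± 0.27 and 4.41 ± 0.27 (log2, SE). Ccne1, cyclin E1, which with CDK2 starts S phase, went from 0.960 and 0.901 TPM to 19.9 and 15.7 and to 21.6 and 11.9. All 3 were separated from the fresh cells in every library. Cdk2 did not rise: it was 47.6 and 45.4 TPM in fresh DCs, 47.8 and 38.3 in EM and 31.8 and 26.9 in co-culture, where it was called lower by limma (-0.65 ± 0.22, adjusted p = 0.04). That call was lost without any 1 of the 2 DC day 0 or the 2 co-cultured organoid libraries (largest adjusted p 0.19), and on the RPKM scale (0.064). Ccne2, cyclin E2, stayed between 1.90 and 4.30 TPM throughout the ductal libraries and was not called.

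The licensing genes started at unequal levels. In fresh DCs Mcm6 stood at 69.3 and 89.8 TPM and Mcm7 at 62.7 and 66.3, while Mcm2 stood at 6.62 and 6.23 and Mcm5 at 14.3 and 2.44. In EM organoids Mcm2 was at 39.96 and 29.3, Mcm5 at 36.9 and 27.9, Mcm6 at 63.2 and 69.1 and Mcm7 at 64.1 and 49.9. The subunits that were low thus rose, Mcm2 by 2.25 ± 0.24 and Mcm5 by 2.19 ± 0.63, and the 2 that were high were not called, Mcm6 at -0.25 ± 0.23 and Mcm7 at -0.18 ± 0.36 (adjusted p = 0.43 and 0.74, limma). The highest of the 6 subunits was 10.5 and 36.8 times the lowest in the 2 fresh libraries, 1.76 and 2.48 times in EM organoids and 3.72 and 3.40 times in co-culture. In co-culture Mcm6 again stood apart, at 89.7 and 118 TPM, with a change from day 0 of 0.38 ± 0.23 that was not called. Mcm3 and Mcm4 rose in EM by 1.06 and 1.503, and Mcm4 by 1.23 in co-culture, where Mcm3 was at 0.88 ± 0.36 (adjusted p = 0.081). The call of Mcm5 was lost without DC day 0 replicate 2 or either organoid library of its comparison, that of Mcm4 in co-culture without DC day 0 replicate 1 or co-cultured organoid replicate 2, and that of Mcm3 in 6 of 12 fits and with quantile normalization (adjusted p = 0.12).

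The factors that load the helicase differed from one another. Cdc6 was low, at 0.978 and 0.428 TPM in fresh DCs, 1.53 and 1.62 in EM and 3.57 and 3.22 in co-culture, where it was called (1.39 ± 0.32, adjusted p = 0.0063). Cdt1 was between 15.8 and 27.8 TPM in all 6 ductal libraries, and the groups overlapped. Gmnn, geminin, which inhibits Cdt1 once S phase has begun, rose from 6.27 and 7.42 TPM to 56.4 and 40.3 in EM and 37.6 and 44.2 in co-culture.

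Most enzymes of nucleotide supply rose, and the clamp Pcna did not. Rrm1 and Rrm2 are the large and the cell cycle regulated small subunit of ribonucleotide reductase. Rrm1 went from 3.33 and 3.29 TPM to 15.6 and 22.7 in EM and 18.5 and 26.4 in co-culture. Rrm2 went from 1.55 and 0.634 TPM to 19.9 and 20.9 in EM and 38.8 and 51.4 in co-culture. Tyms, thymidylate synthase, rose by 1.84 and 1.58 (log2). Tk1, thymidine kinase, was called in co-culture (1.37 ± 0.38, adjusted p = 0.015) and not in EM (0.86 ± 0.38, adjusted p = 0.094), and the media did not differ in Tk1 or Cdc6 by limma (0.51 ± 0.38 and 0.77 ± 0.32). The co-culture call of Tk1 was lost without DC day 0 replicate 1 or either organoid library, and that of Tyms without DC day 0 replicate 2. Pcna, the sliding clamp of the replicative polymerases, was among the highest of all members in fresh DCs, at 89.1 and 86.4 TPM, and was lower in every organoid library, at 67.8 and 60.8 in EM and 55.5 and 59.0 in co-culture. Its change was called in co-culture (-0.61 ± 0.16, adjusted p = 0.014) and just missed in EM (-0.44 ± 0.16, adjusted p = 0.052), where quantile normalization of the libraries called it (-0.74, adjusted p = 0.0039). The co-culture call was lost without DC day 0 replicate 1 or co-cultured organoid replicate 1 (largest adjusted p 0.071).

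Of the transcription factors, E2f1 rose from 1.22 and 2.33 TPM to 14.3 and 14.2 in EM and 17.1 and 11.8 in co-culture. Foxm1 was at 1.76 and 0 TPM in fresh DCs, at 9.43 and 8.25 in EM and at 6.45 and 3.76 in co-culture, and was called in both (2.56 ± 0.58 and 1.84 ± 0.58, adjusted p = 0.0057 and 0.029). The Foxm1 call was lost without DC day 0 replicate 2 in both media, and in co-culture also without either organoid library (adjusted p up to 0.22) or with a pseudocount of 0.1 (0.072). E2f2 and Mybl2 stayed under 6 TPM in every library and were not called.

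Both lists were read in the same libraries, and their levels were set side by side within each library. In fresh DCs the mean log2(TPM + 1) of the S phase list exceeded that of the mitosis list by 2.20 and 1.96. In EM organoids the difference was 0.25 and 0.36, and in co-cultured organoids 0.47 and 0.32. The mitosis list gained 2.92 in EM and 3.01 in co-culture, and the S phase list 1.15 and 1.33. As a sum of TPM, the mitosis genes made up 11.7% and 15.3% of the S phase genes in fresh DCs, 109.8% and 108% in EM organoids and 107% and 109.8% in co-culture.

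The same narrowing was seen in the stroma. Fresh Msc had differences of 1.66 and 2.21, Msc cultured alone 0.86 and 0.77, and co-cultured Msc 0.17 and 0.62. The mitosis sum was 40.2% and 25.3% of the S phase sum in fresh Msc, 79.6% and 73.2% in Msc alone and 119% and 87.2% in co-culture. Fresh and cultured libraries did not overlap in this difference in either lineage. The 2 co-cultured Msc libraries lay far enough apart that no order between Msc alone and co-cultured Msc is read from them. With medians in place of means the differences were 0.93 in EM and 0.89 in co-cultured organoids, and with a pseudocount of 0.1 the difference was 3.28 in fresh Msc, so their size rests on the summary used. The lists were chosen with results known and the differences carry no test.

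**Figure D2:**
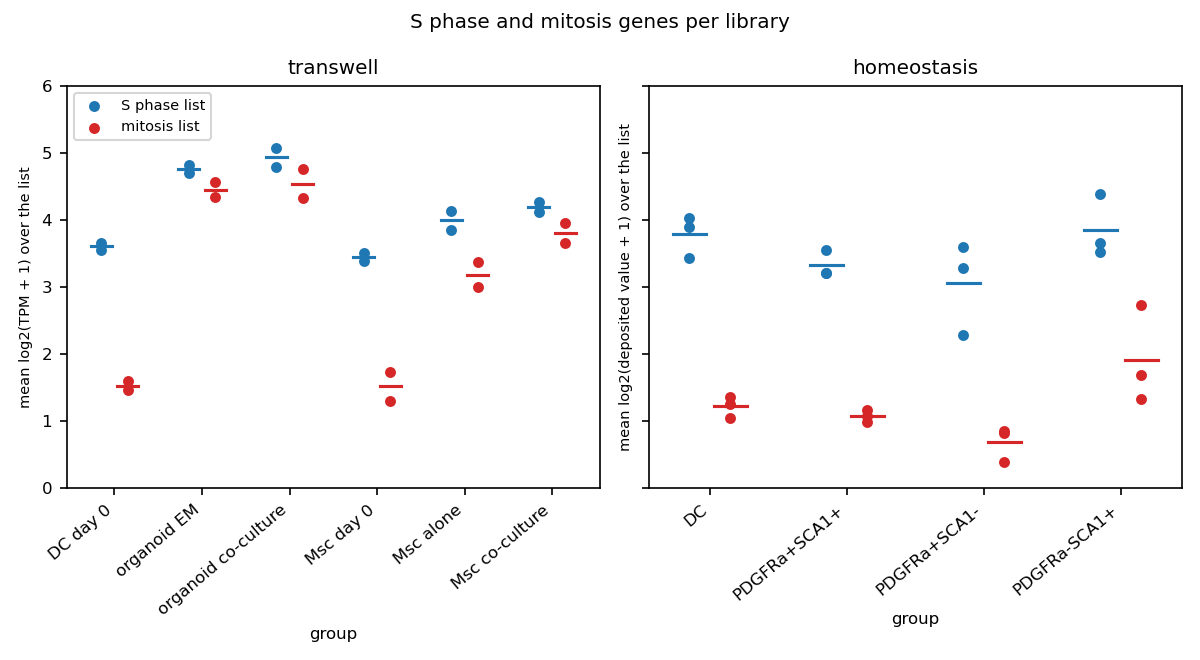
Mean log2(value + 1) over the 13 S phase genes (blue) and the 15 mitosis genes (red) in each library (points), with the group mean as a line, for the transwell experiment (TPM) on the left and the freshly sorted fractions (deposited values) on the right. The group means of the lists are 1.93 to 2.57 units apart in the fresh DC and Msc groups and under 1 unit apart in all cultured groups.

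Few of these genes differed between the 2 organoid conditions, and the D-type cyclins, which carry growth factor signals to the cell cycle, were among them. Co-cultured organoids differed from EM organoids in 5 of 45 genes, 2 higher and 3 lower, beside 12.9% of all genes called, so that the share of members called was no higher than that of all genes. With only these 2 groups fitted, 2 members were called. Of the 5, 4 were G1 cyclins or their kinase. Ccnd1, cyclin D1, was at 547 and 507 TPM in co-culture against 216 and 194 in EM, a mean 2.57 times the EM level (1.36 ± 0.13 log2, adjusted p = 0.00019, limma). Ccnd2 was at 74.3 and 74.2 TPM in co-culture against 232 and 217 in EM, a mean 3.03 times lower (-1.58 ± 0.15, adjusted p = 0.00015). Ccnd3 stood at 26.9 and 22.4 against 41.2 and 38.3 TPM (-0.67 ± 0.15, adjusted p = 0.016). None of these groups overlapped, and Ccnd1 and Ccnd2 moved in opposite directions.

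Their partner Cdk4 was at 329 and 381 TPM in co-culture against 530.4 and 534 in EM (-0.59 ± 0.11, adjusted p = 0.0058). Cdk6, the alternative partner, was at 41.0 and 37.9 against 31.1 and 26.5 TPM and was not called. The fifth gene called was Rrm2, at a mean 2.21 times the EM level (1.09 ± 0.28, adjusted p = 0.03). Ccnd3 was lost without either EM library or co-cultured organoid replicate 2 and Rrm2 without any of the 4 organoid libraries (adjusted p up to 0.095 and 0.17), so that the count fell from 5 to 3 without EM replicate 1, EM replicate 2 or co-cultured organoid replicate 2. Ccnd3 was also lost with quantile normalization (adjusted p = 0.05) and Rrm2 with a pseudocount of 0.1 (0.098). None of the 15 mitosis genes was called between the 2 media, with changes from -0.26 to 0.62, and neither was Cdk1 (0.06 ± 0.32, log2) or Mcm6 (0.63 ± 0.23, adjusted p = 0.12).

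As a share of the summed TPM of the 3 D cyclins, Ccnd1 was 79.7% and 76.1% in fresh DCs, 44.1% and 43.2% in EM organoids and 84.4% and 84.0% in co-culture. Ccnd1 itself was at 228 and 222 TPM in fresh DCs and did not differ detectably in EM (-0.13 ± 0.13, adjusted p = 0.45), whereas Ccnd2 at 51.4 and 63.1 TPM and Ccnd3 at 6.49 and 6.61 rose there by 1.96 ± 0.15 and 2.43 ± 0.15. In co-culture the pattern was the reverse for the first 2, with Ccnd1 higher than in fresh DCs by 1.22 ± 0.13 (adjusted p = 6.8e-05) and Ccnd2 not called (0.38 ± 0.15, adjusted p = 0.065). On the deposited RPKM scale, Ccnd2 was called there too (0.47, adjusted p = 0.02). Ccnd1 thus made up most of the D cyclin messages in fresh DCs and in co-culture, and less than Ccnd2 in EM organoids, while the mitosis genes were raised in both organoid groups.

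**Figure D3:**
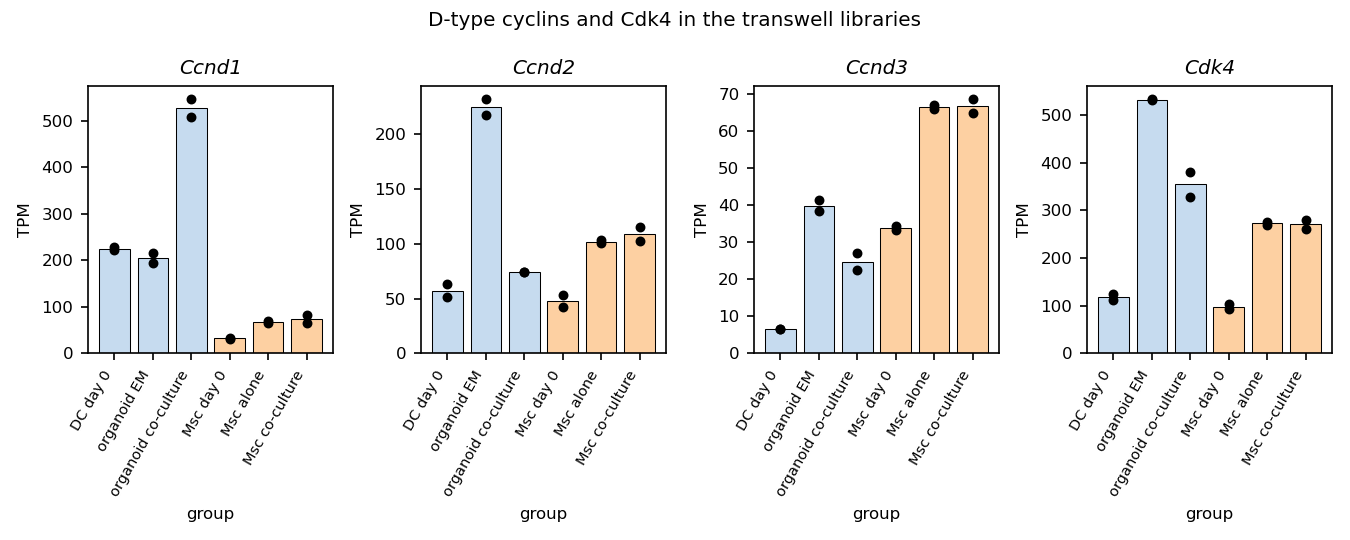
TPM of Ccnd1, Ccnd2, Ccnd3 and Cdk4 in the 6 transwell groups, with bars for the mean, points for the 2 libraries, blue for the ductal and orange for the mesenchymal lineage. Ccnd1 peaks in co-cultured organoids at 507 to 547 TPM, Ccnd2 in EM organoids at 217 to 232 TPM, and Ccnd3 in cultured Msc at 64.9 to 68.6 TPM.

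Most members also rose in cultured stroma. In Msc alone 29 of 45 genes were higher than at day 0 and 1 lower, beside 44.8% of all genes called and 27.4% higher, and in co-cultured Msc 31 were higher and 1 lower, beside 43.3% and 26.0%. The medians were 1.24 and 1.54 against 0.19 and 0.17 over all genes. Of the mitosis genes, 12 rose in Msc alone and 13 in co-culture, and of the S phase list 5 rose and 1 fell in each. Leaving out 1 library in turn, 22 of 30 and 28 of 32 calls held every time. Those lost at least once were Bub1, Ccnb2, Cdc20, Cdk6, Cenpf, E2f1, Gmnn and Tk1 in Msc alone, each without an Msc day 0 or Msc alone library, and Ccne1, Cdk6, E2f1 and Foxm1 in co-culture, E2f1 without Msc day 0 replicate 2 alone and the other 3 without an Msc day 0 library and also without at least 1 further library. With only the compared groups fitted, the counts were 15 in place of 30 in Msc alone and 21 in place of 32 in co-culture. On the RPKM scale Bub1 and Cenpf in Msc alone were not called (adjusted p = 0.054 and 0.11).

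Cdk1 went from 3.58 and 1.07 TPM in fresh Msc to 36.7 and 38.9 in Msc alone and 53.7 and 40.4 in co-culture, by 3.66 ± 0.32 and 3.95 ± 0.32 (adjusted p = 2.2e-05 and 1.4e-05, limma). Mki67 went from 1.31 and 0.365 TPM to 5.16 in both libraries of Msc alone and to 10.2 and 8.83 in co-culture. Plk1 was at 1.48 and 0 TPM, then at 9.72 and 24.9 alone and 29.7 and 17.3 in co-culture. Every cultured library lay above the fresh ones for these 3 genes.

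Aurkb, Bub1 and Kif11 had no read in either fresh Msc library. Measured against 3 reads per library, Aurkb was at least 62.8-fold higher in Msc alone and 91.3-fold in co-culture, Kif11 at least 57.7-fold and 110.5-fold, and Bub1 at least 25.8-fold and 38.7-fold. With these at their bounds the median of the mitosis list in Msc alone was 2.04 in place of 1.82. Cenpa and Bub1b were not called in either culture. Cenpa was at 9.18 and 13.0 TPM in fresh Msc and between 5.78 and 12.7 in the 4 cultured libraries (-0.50 and -0.06). Bub1b was at 11.4 and 0.741 TPM in the 2 fresh libraries and between 2.68 and 12.6 in culture. Aurka was called in co-culture (1.54 ± 0.34, adjusted p = 0.0048) and not in Msc alone (0.74 ± 0.34, adjusted p = 0.1).

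All 5 G1 genes rose in the stroma in both cultures. Ccnd1 went from 33.7 and 30.3 TPM to 69.7 and 64.9 alone and 81.5 and 65.1 in co-culture. Ccnd2 went from 42.5 and 53.1 TPM to 104 and 100.3 and to 115 and 102, and Ccnd3 from 34.3 and 33.2 TPM to 66.9 and 66.0 and to 68.6 and 64.9. The 3 cyclins rose in parallel, and Ccnd1 made up 26.0% to 30.7% of their sum in all 6 Msc libraries. Cdk4 rose by 1.47 ± 0.11 and 1.46 ± 0.11, and Cdk6 by 0.81 ± 0.23 and 0.75 ± 0.23. The Cdk6 call in Msc alone was lost without Msc day 0 replicate 2 or Msc alone replicate 1, and that in co-culture without Msc day 0 replicate 2 or either co-cultured Msc library (largest adjusted p 0.13 in each).

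Pcna was the 1 member that fell in the stroma, from 70.1 and 95.8 TPM to 19.3 and 19.2 in Msc alone and 24.9 and 28.0 in co-culture. The decrease was a mean 4.31 times and 3.13 times (-2.03 ± 0.16 and -1.60 ± 0.16 log2, adjusted p = 1.2e-05 and 5.6e-05, limma), and it held without each library in turn. Beside it, the other S phase genes went up or were not called. Rrm2 rose from 5.57 and 5.96 TPM to 17.97 and 25.2 alone and 35.2 and 29.2 in co-culture, Mcm2 by 1.73 and 2.0005, Mcm6 by 1.42 and 1.13, Tyms by 1.78 and 2.68 and Tk1 by 1.30 and 1.74. Rrm1 was at 24.5 and 29.7 TPM in fresh Msc and at 30.2 to 35.8 in culture (0.18 ± 0.24 and 0.28 ± 0.24, adjusted p = 0.59 and 0.39). Cdt1 was at 22.04 and 19.8 TPM before culture and 4.86 and 17.6 and then 9.20 and 11.2 after it, lower in each cultured library but not called (-1.07 ± 0.47 and -0.97 ± 0.47, adjusted p = 0.096 and 0.13).

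Between co-cultured Msc and Msc alone no member was called by limma, beside 0.127% of all genes. An unadjusted p under 0.05 was found for 7 of 45 members, beside 1263 of all 18136 genes tested. The changes ran from -0.37 to 1.32, with 37 of 45 positive and all 15 mitosis genes positive, at 0.26 to 1.01. The median was 0.34 against 0.00 over all genes. These signs carry no test, and the share of all genes with a positive change was not counted. Mki67 was 0.77 ± 0.32 higher in co-culture (adjusted p = 0.68), with 10.2 and 8.83 against 5.16 and 5.16 TPM. The highest change was that of Ccne1, at 39.7 and 27.0 TPM in co-culture against 17.3 and 9.03 alone (1.32 ± 0.41, adjusted p = 0.48). For both genes the 2 groups did not overlap, and with 2 libraries per group the differences were not detectable after adjustment over all genes.

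At the end of co-culture, organoids and Msc differed in 14 of 45 genes, 12 higher in organoids and 2 lower, beside 36.7% of all genes called and 19.0% higher. Ccnd1 differed most, at 547 and 507 TPM in organoids against 81.5 and 65.1 in Msc (2.84 ± 0.13, adjusted p = 1.7e-07). Mcm6 was 1.61 ± 0.23 and Mcm7 1.68 ± 0.36 higher in organoids, Pcna 1.09 ± 0.16, Cdk6 1.87 ± 0.23 and Cdc20 1.13 ± 0.20. Ccnd3 and Ccnd2 were lower in organoids (-1.41 ± 0.15 and -0.54 ± 0.15). Mki67 (0.10 ± 0.32), Cdk1 (0.59 ± 0.32) and Plk1 (1.14 ± 0.50, adjusted p = 0.11) were not called, though Cdk1 and Plk1 were on the RPKM scale (adjusted p = 0.035 and 0.026). On that scale 19 members were higher in organoids, in place of 12, and 2 lower. The median of all genes was 0.13 there in place of 0.00, and the share of all genes called on that scale is not reported here. Without co-cultured organoid replicate 2 the count fell from 14 to 7, and 7 of the 14 calls held without each library in turn, those of Aurka, Ccnb2, Ccnd2, Cdk4, Mcm3, Mcm7 and Ube2c being lost at least once, all of them without this library and all except Mcm7 also without at least 1 other. Aurka and Ube2c were not called with quantile normalization (adjusted p = 0.076 and 0.067) or a pseudocount of 0.1.

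Whether the lineages changed by unequal amounts in co-culture was tested directly as the organoid change from day 0 minus the Msc change from day 0. Msc had been expanded before DCs were added, so lineage and time in culture cannot be told apart here. Of 45 genes 12 were called, 11 with the larger upward change or smaller decrease in organoids and Ccnd2 the other way, beside 28.3% of all genes called and 13.8% higher. Aurka differed most, rising by 4.03 in organoids and by 1.54 in Msc, a difference of 2.49 ± 0.48 (SE, adjusted p = 0.0043, limma). Rrm1 rose by 2.42 in organoids, where it began at 3.33 and 3.29 TPM, against 0.28 in Msc, where it began at 24.5 and 29.7 (2.14 ± 0.34, adjusted p = 0.0016). Cdc20 differed by 2.10 ± 0.29, Rrm2 by 2.19 ± 0.39 and Ccnb2 by 1.89 ± 0.40. Pcna fell less in organoids than in Msc, a difference of 0.99 ± 0.23 (adjusted p = 0.012). Mki67 and Cdk1 did not differ detectably between the lineages (-0.60 ± 0.45 and 0.46 ± 0.46). Without co-cultured Msc replicate 2 the count fell from 12 to 7, without DC day 0 replicate 2 or either co-cultured organoid library it was 8, and without Msc day 0 replicate 2 it was 18. Of the 12, Ccna2, Ccnd2, Ccnd3, Ccne1, Cenpa and Ube2c were each lost without at least 1 library, Ube2c also with quantile normalization (adjusted p = 0.12) and Ccne1 on the RPKM scale (0.078).

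**Figure D4:**
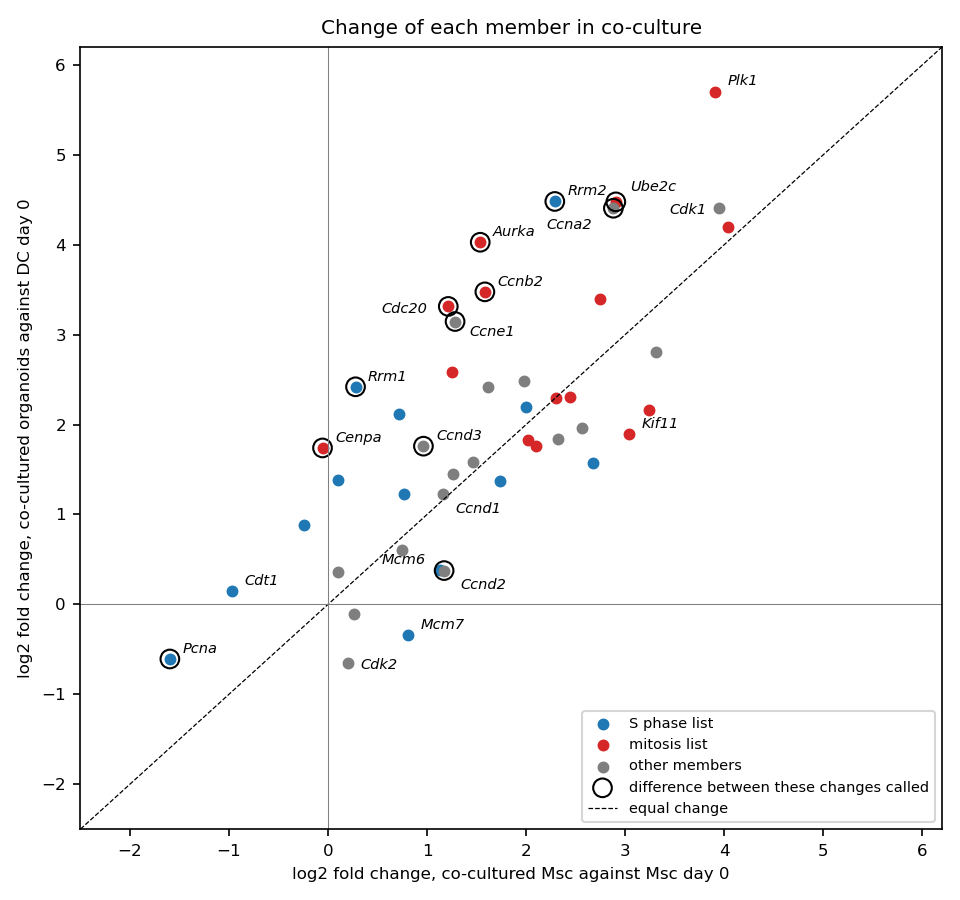
Log2 fold change (on log2(TPM + 1)) of each of the 45 genes from day 0 to co-culture in Msc (horizontal axis) and in the ductal lineage (vertical axis), with S phase genes in blue, mitosis genes in red and circles around the 12 genes whose 2 changes differed by limma. Aurka, Rrm1, Rrm2, Cdc20 and Ccnb2 lie well above the line of equal change, Ccnd2 lies below it, and Pcna is negative on both axes.

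In freshly sorted fractions too, the mitosis list was lower than the S phase list. The mean S phase level exceeded the mean mitosis level by 2.57 ± 0.19 (SD, n = 3 mice) in DCs, 2.25 ± 0.22 in PDGFRα+SCA1+ cells, 2.37 ± 0.44 in PDGFRα+SCA1- cells and 1.94 ± 0.34 in PDGFRα-SCA1+ cells. Mki67 was listed at 0.217, 2.62 and 0.270 in DCs of mice A, E and F, at 0.304, 0 and 0.0712 in PDGFRα+SCA1+ cells and at 0, 0.0338 and 0 in PDGFRα+SCA1- cells. Only the PDGFRα-SCA1+ fraction had more in every mouse, at 5.63, 6.19 and 8.39. The other proliferation marker, Top2a, did not follow this in mouse A. It was at 1.08, 6.73 and 5.36 in PDGFRα-SCA1+ cells, against 4.06, 1.27 and 1.27 in DCs. In PDGFRα+SCA1+ cells it was at 1.57, 1.08 and 1.33, and in PDGFRα+SCA1- cells at 0.0202, 0 and 0. Top2a was not called between PDGFRα-SCA1+ cells and DCs (0.66) or PDGFRα+SCA1+ cells (1.01, log2). Bub1 and Kif11 were listed at 0 in 11 of the 12 libraries, the exception being PDGFRα-SCA1+ cells of mouse F.

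Against DCs, 7 of the 37 tested members were called in PDGFRα+SCA1+ cells, 3 higher and 4 lower, beside 23.8% of all genes. The same number was called in PDGFRα+SCA1- cells, 2 higher and 5 lower, beside 28.8%. Under quantile normalization each of these splits became 4 higher and 3 lower. With the reuse of library totals in this table undone, the first split became 3 and 3, the second 2 and 3, and that of PDGFRα-SCA1+ cells, given further on, 7 and 2 in place of 5 and 2. That scaling ended the calls of Mcm7 in PDGFRα+SCA1+ cells (adjusted p = 0.058) and of Cdk2 and Cdk6 in PDGFRα+SCA1- cells (0.052 and 0.067). RNA of other cells differed between the fractions as well. The hepatocyte markers summed to 5840 to 6967 in DCs, 217 to 1671 in PDGFRα+SCA1+ cells, 439 to 1002 in PDGFRα+SCA1- cells and 2035 to 6527 in PDGFRα-SCA1+ cells. The erythroid markers summed to 389 to 1346, 535 to 2051, 889 to 3966 and 2664 to 6258 in the same order. The part of this RNA in the comparisons was not tested. Ccnd1 was the furthest apart, at 275, 303 and 190.4 in DCs of mice A, E and F against 11.5, 6.07 and 6.33 in PDGFRα+SCA1+ cells and 0.0772, 8.40 and 37.5 in PDGFRα+SCA1- cells (-4.86 ± 0.93 and -5.11 ± 0.93 log2, SE, adjusted p = 0.0021 and 0.0014, limma). Mcm6 was at 88.4, 75.9 and 61.6 in DCs, 6.00, 10.3 and 7.57 in PDGFRα+SCA1+ cells and 0, 3.34 and 12.6 in PDGFRα+SCA1- cells (-3.11 ± 0.73 and -4.28 ± 0.73). Mcm7 was at 51.4, 55.9 and 56.0 in DCs and at most 11.5 in either PDGFRα+ fraction (-2.65 ± 0.87 and -3.50 ± 0.87). The PDGFRα+SCA1- library of mouse A stood apart, with Mcm6 and Mcm7 at 0 and Mcm3 at 0.0370. In it 12 of the 15 mitosis genes were at 0, against 9 and 8 in the same fraction of mice E and F. Its Mcm4 (73.1), Rrm2 (44.0), Gmnn (25.1) and E2f1 (28.2) were the highest of the fraction. Without this library Ccnd1, Mcm6 and Mcm7 were still called lower and the count was again 7. DCs thus held high Ccnd1, Mcm6 and Mcm7 in all 3 mice, the same genes that were high in the day 0 DCs of the transwell experiment.

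Cdk6 was also lower in both PDGFRα+ fractions (-2.22 ± 0.47 and -1.46 ± 0.47), and Cdk2 in PDGFRα+SCA1- cells (-1.86 ± 0.56, adjusted p = 0.026). Rrm1 ran the other way, at 6.27, 4.91 and 4.58 in DCs against 18.7, 27.1 and 27.5 in PDGFRα+SCA1+ cells and 17.4, 27.5 and 33.7 in PDGFRα+SCA1- cells (2.01 ± 0.38 and 2.08 ± 0.38). Ccnd3 was higher in both as well (1.52 ± 0.36 and 1.76 ± 0.36), and Cenpa in PDGFRα+SCA1+ cells, at 12.0, 6.83 and 11.2 against 0.931, 0.568 and 0.541 in DCs (2.68 ± 0.69, adjusted p = 0.013). Against DCs, the call of Mcm7 in PDGFRα+SCA1+ cells was lost in 7 of 12 fits without 1 library (adjusted p up to 0.13) and that of Cenpa without PDGFRα+SCA1+ A (0.052). In PDGFRα+SCA1- cells Cdk2 was lost without libraries E or F of either fraction (up to 0.091) and Cdk6 without PDGFRα+SCA1- E, DC E or DC F (up to 0.13). Quantile normalization also ended these calls of Mcm7, Cdk2 and Cdk6 (0.057, 0.056 and 0.083), and a pseudocount of 0.1 those of Mcm6 and Mcm7 in PDGFRα+SCA1+ cells (0.1 and 0.21). Neither PDGFRα+ fraction differed from the other in any member by limma (0 of 37), beside 0.587% of all genes called. At an unadjusted p under 0.05 stood 2 of the 37 members, beside 1985 of all 17028 genes tested.

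In PDGFRα-SCA1+ cells 5 members were higher and 2 lower than in DCs, 18.9% of those tested, beside 22.8% of all genes called. Against PDGFRα+SCA1+ cells 5 were higher and none lower, 13.5%, beside 18.8%. The share of members called was thus no higher than that of all genes. The 5 higher than in DCs included Rrm1 (1.46, lost without DCs of mouse F) and Ccnd3 (1.68), which were also higher in both PDGFRα+ fractions. Mki67 was higher than in DCs by 2.11 ± 0.48 and than in PDGFRα+SCA1+ cells by 2.77 ± 0.48 (adjusted p = 0.0065 and 0.0014, limma). Mki67 reached 1, the minimum of the filter, only in the libraries of this fraction and in DCs of mouse E. It was thus tested only because of the fraction where it is high, and its p-values do not allow for that choice. Cenpa was at 35.8, 29.3 and 53.6, above every library of the other fractions (4.56 ± 0.69 against DCs). Ccnd1 and Cdk6 were the 2 genes lower than in DCs (-3.03 ± 0.93 and -2.27 ± 0.47), and the Ccnd1 call was lost without any 1 library of either fraction (adjusted p up to 0.11). Mcm3 was at 59.7, 72.5 and 132 against 15.0, 5.88 and 18.8 in PDGFRα+SCA1+ cells (2.70 ± 0.80, adjusted p = 0.033), and Mcm6 at 29.1, 55.2 and 49.6 against 6.00, 10.3 and 7.57 (2.33 ± 0.73, adjusted p = 0.044). Ccnd2 was higher by 1.52 ± 0.31 and Bub1b by 2.78 ± 0.85 (adjusted p = 0.04), and against DCs Cdk1 was higher by 2.23 ± 0.74 (adjusted p = 0.049). With the mouse as a block, Bub1b and Cdk1 were no longer called (adjusted p = 0.051 and 0.074). Cdk1 was lost in 10, Mcm3 and Mcm6 in 9 and Bub1b in 6 of the 12 fits without 1 library, and Mki67, Cenpa and Ccnd2 in none. These 4 genes and the lower Ccnd1 were also not called with a pseudocount of 0.1 (adjusted p from 0.089 to 0.25), and Cdk1, Mcm6 and Bub1b not with quantile normalization (0.059, 0.076 and 0.058). Mcm6 was not called with the totals undone either (0.055).

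The library of mouse F stood apart within this fraction. None of the 15 mitosis genes was listed at 0 there, against 7 in each of the PDGFRα-SCA1+ libraries of mice A and E. Aurkb was at 11.9, Plk1 at 5.15, Bub1 at 3.95 and Ccnb1 at 3.52 in mouse F, and all 4 were listed at 0 in mice A and E. Ube2c was at 21.2 in mouse F against 3.19 and 0. In the same library the sum of 5 leukocyte markers was 323, against 49.6 and 67.0 in mice A and E and at most 17.5 in the other fractions, with Ptprc, which encodes the CD45 used to exclude leukocytes, at 75.2 against 3.10 and 0.224. Epcam, the antigen that marks DCs, was at 148 in the PDGFRα-SCA1+ library of mouse E, against 0.610 and 30.8 in mice A and F. The part of these other cells in the results was not tested. Without the PDGFRα-SCA1+ library of mouse F, Mki67 was still higher than in DCs (1.96, adjusted p = 0.019, limma) and than in PDGFRα+SCA1+ cells (2.63, adjusted p = 0.0052). The counts were then 4 higher and 2 lower against DCs and 2 higher against PDGFRα+SCA1+ cells in place of 5. The 2 lower genes were Cdk6 and Mcm7 (-2.97, adjusted p = 0.037), and Ccnd1 was no longer called (0.086). The count against PDGFRα+SCA1+ cells was also 2 without PDGFRα-SCA1+ E, PDGFRα+SCA1+ E or F, or DC A or E, 3 without PDGFRα+SCA1+ A or DC F, and 9 without PDGFRα+SCA1- A, and the count against DCs was 4 without DC F.

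**Figure D5:**
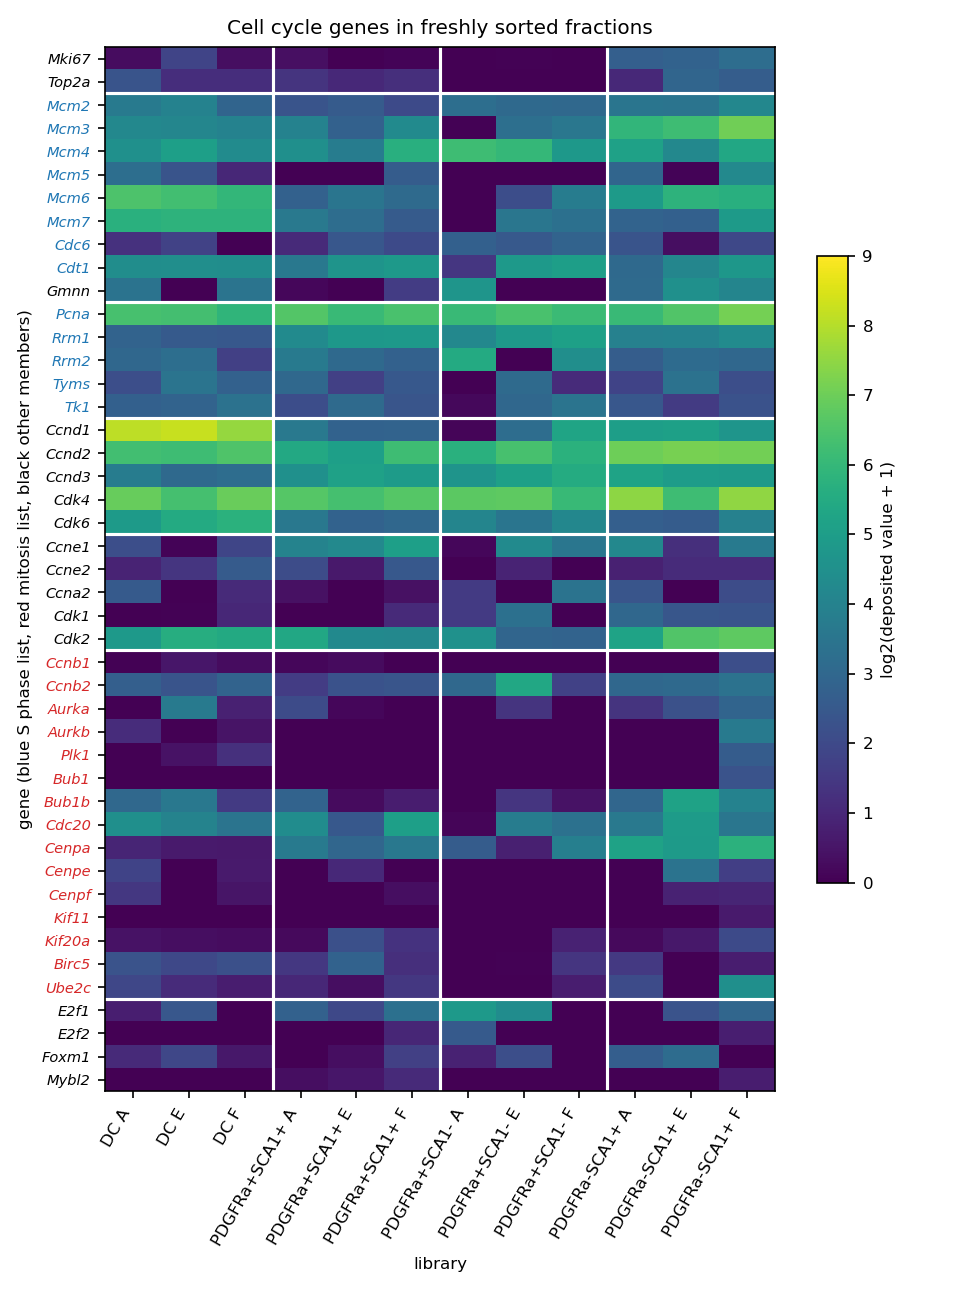
Level of each of the 45 genes, as log2(deposited value + 1), in the 12 freshly sorted libraries (columns, 1 per mouse and fraction), with genes ordered by role. None of the 15 mitosis genes (red) is at 0 in the PDGFRα-SCA1+ library of mouse F, 7 are at 0 in each of the other 2 libraries of that fraction and 12 in the PDGFRα+SCA1- library of mouse A, and Ccnd1, Mcm6 and Mcm7 are brightest in DCs.

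Genes of the same pathway that are no members also rose in culture. Of 27 other mitosis genes tested, 24 rose in EM organoids, 26 in co-cultured organoids, 21 in Msc alone and 22 in co-cultured Msc, beside 27.1%, 23.2%, 27.4% and 26.0% of all genes called higher. The largest changes were those of Cdca3 (3.78) and Tpx2 (3.69) in EM, Cdca3 (3.997) and Melk (3.97) in organoid co-culture, and Racgap1 and Incenp in the stroma (3.50 and 3.22 alone, 3.54 and 3.68 in co-culture). Against the list, Pttg1, securin, fell in both Msc cultures (-0.62 ± 0.18 and -0.90 ± 0.18). Of 25 other replication genes, 15, 13, 11 and 10 rose in the same 4 groups, which have these same background shares, led in all 4 by Chaf1a, a subunit of the chromatin assembly factor that deposits histones behind the fork (3.47, 3.30, 3.21 and 2.82). Next in Msc was Rfc4, a subunit of the clamp loader (3.18 and 2.60). Slbp, which binds histone messenger RNA, fell in co-cultured organoids (-0.91 ± 0.19, adjusted p = 0.0042) and in both Msc cultures (-1.08 ± 0.19 and -1.21 ± 0.19).

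Of 14 pocket protein, E2F and DREAM genes, 4 rose in each organoid group, about the share over all genes, 5 in Msc alone and 6 in co-cultured Msc, and E2f5, a repressor E2F, fell in each of the 4 cultures (-1.16, -1.67, -1.33 and -1.34). The inhibitors of the cyclin-dependent kinases did not move as one. Cdkn1a, p21, was at 1219 and 1261 TPM in fresh DCs, 217 and 201 in EM organoids and 593 and 654 in co-culture. It fell by 2.56 and 0.99 on the log2 scale, and was higher in co-culture than in EM by 1.57 ± 0.12 (adjusted p = 3.7e-05, limma). In the stroma it went from 1106 and 1182 TPM to between 346 and 443. Cdkn1c, p57, was called lower in co-cultured organoids (-1.15 ± 0.25) and in both Msc cultures (-1.56 ± 0.25 and -2.15 ± 0.25). The INK4 genes Cdkn2a and Cdkn2b rose instead, Cdkn2b, p15, from 57.8 and 42.3 TPM to between 253 and 368 in organoids and from 10.03 and 10.9 to between 73.9 and 125 in Msc. Cdkn2a, at 0.198 and 0 TPM in fresh DCs, was between 4.77 and 21.5 in organoids and, from 0 in both fresh Msc libraries, between 1.18 and 2.83 in cultured Msc, where the RPKM scale did not call it (adjusted p = 0.097 alone and 0.094 in co-culture). Between co-culture and EM, Cdkn1c was lower in co-culture (-1.02 ± 0.25, adjusted p = 0.028), and so was Slbp (-0.76 ± 0.19, adjusted p = 0.031), while no other mitosis gene was called. With quantile normalization Cdkn1c and Slbp were not called (adjusted p = 0.13 and 0.089).

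In the fresh fractions, calls of these lists against DCs stand beside the shares of all genes given above (23.8%, 28.8% and 22.8%). Of 23 other replication genes tested, none rose and 1 fell in PDGFRα+SCA1+ cells, 1 rose and 3 fell in PDGFRα+SCA1- cells and 1 rose and 2 fell in PDGFRα-SCA1+ cells, and of 15 other mitosis genes 0, 0 and 1 rose and 1 fell in each. Of 13 pocket protein, E2F and DREAM genes, 1 rose and 2 fell in each fraction, about the share over all genes, and of 6 inhibitors 2 rose in each and 1, 0 and 1 fell. The inhibitor Cdkn2d, p19, was at 15.8, 9.95 and 2.60 in DCs of mice A, E and F, 76.0, 48.9 and 66.8 in PDGFRα+SCA1+ cells, 38.4, 92.0 and 42.9 in PDGFRα+SCA1- cells and 161, 305 and 290.2 in PDGFRα-SCA1+ cells. It was thus highest, in every mouse, in the fraction that also had the most Mki67. Cdkn2d was called higher than in DCs in all 3 fractions (2.87, 2.64 and 4.81 ± 0.54, adjusted p = 0.0018, 0.0028 and 3.7e-05, limma) and so was Cdkn1c (1.71, 1.42 and 2.24 ± 0.38). Between PDGFRα-SCA1+ and PDGFRα+SCA1+ cells the Cdkn2d difference of 1.93 ± 0.54 was called (adjusted p = 0.025), and not with quantile normalization (0.067).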

How the data were processed

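Smart-seq2 libraries were aligned to GRCm38 with STAR (2.5.0a) and counted per gene with featureCounts (1.6.0 for the transwell libraries), per the submitters' processing notes, which also name SAMtools. The transwell table was deposited as RPKM, and each library was divided here by its own sum to give TPM. For the homeostasis experiment the deposited values are named TPM but are only a length-scaled signal: their columns sum to 847270 to 1173511, and against TPM the library totals had been reused from gene to gene (factor 0.722 to 1.386), so they were used as deposited and the undone version was an alternative. The 4 columns of population means by the authors were not used, and 26 gene symbols read as dates. Of both files, 93.8% and 93.9% of 47020 and 50173 low values were whole reads within 0.05 read, which gave the depth. No table held counts, so no count model was run.

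Genes that reached 1 in 3 or more homeostasis libraries, or in 2 or more transwell libraries, were fitted as log2(value + 1) with limma 3.58.1 (R 4.3.3, eBayes with trend) over all 12 libraries of an experiment, without a block, and called at a Benjamini-Hochberg adjusted p under 0.05. A floor of 3 reads per library served for genes at 0. The fits were also run on simulated data with independent normal noise. Such data hold no pairing of mice, no floor at 0 and no RNA of other cells, and do not vouch for single calls. Homeostasis libraries of 1 mouse letter come from the same animal and are paired (correlations of residuals 0.0039 to 0.097). Transwell numbers are shared only as numbers (-0.019 to 0.030). Tables and plots were made with Python 3.11.15, numpy 2.4.6, pandas 2.3.3 and matplotlib 3.10.9. All 45 genes are named by role, and other genes only from fixed lists, as the 2 with the largest change each way past the threshold or those against the list, and some genes that this rule names are not reported here. The members and lists were chosen with earlier results of these data known. Alternatives were the pseudocount, the filter, quantile normalization, eBayes without trend, the replicate block, RPKM as deposited, the undone totals, a fit of the compared groups alone, each list's median, and leaving out each library. Leaving out libraries for the S phase and mitosis levels was added after the data were seen.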

Additional observations from a re-analysis of the deposited data

Results flagged for a closer look

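Organoids and Msc were both followed from day 0 to co-culture, and 12 of the 45 genes changed by unequal amounts in the 2 lineages in a limma test of the difference itself (change in organoids minus change in Msc, log2, adjusted over all genes), beside 28.3% of all genes, so that the share of members called was no higher than that of all genes. For the mitosis genes this difference was 2.49 for Aurka, 2.10 for Cdc20, 1.89 for Ccnb2, 1.80 for Cenpa and 1.57 for Ube2c. For the cyclins of S phase it was 1.86 for Ccne1 and 1.52 for Ccna2. For the nucleotide and clamp genes it was 2.19 for Rrm2, 2.14 for Rrm1 and 0.99 for Pcna, where Pcna fell in both lineages and less in organoids. The D cyclins went opposite ways, with 0.80 for Ccnd3 and -0.80 for Ccnd2. Leaving out 1 library in turn, 6 of the 12 calls were lost at least once: Ube2c in 10 of the 12 fits, Ccne1 in 8, Ccnd2 in 4, Ccna2 and Cenpa in 3 and Ccnd3 in 2. The lineages also began from different levels: Rrm1 stood at 3.29 to 3.33 TPM in day 0 DCs and at 24.5 to 29.7 in day 0 Msc, and hepatocyte markers at 4211 to 5294 and 16122 to 20788 TPM. Msc had also been expanded in MM before DCs were added. The part of these starting levels and of the longer culture in the differences was not tested.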

How the results depend on the processing

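The count of genes called between PDGFRα-SCA1+ and PDGFRα+SCA1+ cells, 5, was 2 with a pseudocount of 0.1, 3 without a filter, 3 with quantile normalization and 8 with only these groups fitted. With only the compared groups fitted, the counts were 2 in place of 5 for co-culture against EM organoids, 15 in place of 30 for Msc alone and 21 in place of 32 for co-cultured Msc, in fits with fewer libraries. That fit cannot be made for the difference between lineages. The S phase minus mitosis difference was 2.75 (pseudocount 0.1), 1.59 (RPKM) and 2.25 (medians) in day 0 DCs, 3.28 and 1.31 (pseudocount, RPKM) in day 0 Msc, 0.93, 0.65 and 0.96 in Msc alone, and by medians 0.93 in EM and 0.89 in co-cultured organoids, so its size, but not its sign, rests on the scale. The cause was not tested. Cdt1, never called, was at -0.0502 in co-cultured organoids with quantile normalization.

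Leaving out 1 library, the counts ran from 5 to 8 for PDGFRα+SCA1+ and 5 to 10 for PDGFRα+SCA1- cells against DCs, 4 to 8 for PDGFRα-SCA1+ cells, 0 to 0 between the PDGFRα+ fractions, 2 to 9 for PDGFRα-SCA1+ against PDGFRα+SCA1+ cells, 29 to 33 for EM and 29 to 38 for co-cultured organoids, 3 to 6 between them, 24 to 30 and 29 to 33 for Msc, 0 to 0 between Msc groups, 7 to 16 for organoids against Msc and 7 to 18 for the difference between lineages. The S phase minus mitosis difference ran from 1.96 to 2.20, 0.25 to 0.36, 0.32 to 0.47, 1.66 to 2.21, 0.77 to 0.86 and 0.17 to 0.62 in day 0 DCs, EM, co-cultured organoids, day 0 Msc, Msc alone and co-cultured Msc. No called gene changed sign.

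The mouse block changed no other call than Cdk1 and Bub1b. Blocking on the transwell number, which pairs nothing by the labels, lost Bub1b in EM (adjusted p = 0.052) and Aurka between organoids and Msc (0.055), the only 4 of 273 named values to change under a block. A pseudocount of 0.1 lost 16 of these calls, RPKM lost 6 and gained 4, and the undone totals lost 5. Quantile normalization lost 15 and gained 1, and 1 value changed sign. The named values are the members called and other genes of the text, so members called only under an alternative are mostly not among them. On the RPKM scale, 19 members were higher in organoids than in Msc at the end of co-culture, in place of 12. Quantile normalization shifted the median of all genes by 0.34 in PDGFRα+SCA1- against DCs and by 0.11 to 0.20 either way in 5 other comparisons. With 2 libraries a group, small differences are beyond these fits.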
